A study of Homo sapiens with 4 samples.

Results

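The genes described here are 9 kidney lineage transcription factors and tubule markers, listed by symbol: PAX8, PAX2, LHX1, EMX2, CDH6, CUBN, LRP2, AQP1 and MME. Their rows were taken from the count table of the series, and 7 of the 9 were found there, among 12912 rows in all. EMX2 and LRP2 have no row in the table, so no value can be given for either. All 7 genes with a row also passed the filter on low counts. LHX1 has 2 rows, and the one with more counts was used.

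The cells were the human clear cell renal carcinoma line 786-O, whose VHL gene carries a frameshift mutation. VHL is the substrate-binding part of a ubiquitin ligase. The control subline, 786-O-Ctrl, is labelled VHL-null, and the restored subline, 786-O-VHL, expressed HA-tagged VHL from a retroviral vector. The labels name the triple-reporter versions, so both sublines carried a second retroviral vector for GFP, luciferase and thymidine kinase. Both were grown in RPMI1640 with fetal bovine serum, and 2 libraries per subline were sequenced to ask what restored VHL does to mRNA levels. The vector carried by 786-O-Ctrl in place of VHL is not stated. Each group is 1 subline, so restoration of VHL cannot be told apart from any other difference between these sublines. The p-values measure only spread between the 2 libraries of each subline, as estimated partly from other genes.

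In the developing kidney, the paired-box factors PAX2 and PAX8 and the LIM-homeobox factor LHX1 act early in the nephric lineage, and EMX2 acts in the ureteric epithelium. The cadherin CDH6 marks the prospective proximal tubule. In the adult proximal tubule, megalin (LRP2) and cubilin (CUBN) take up filtered protein, the water channel AQP1 carries water across both membranes, and neprilysin (MME, also CD10) cleaves peptides at the brush border. PAX8, PAX2 and CD10 are in diagnostic use as markers of clear cell renal carcinoma, which is held to arise from the proximal tubule.

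In 786-O-VHL, MME mRNA fell about 20.8-fold, PAX8 fell to 0.536 of its level in 786-O-Ctrl and PAX2 to 0.757, whereas CDH6 was 1.37-fold higher (edgeR FDR < 0.05 for each, though PAX2 and CDH6 did not pass with DESeq2). LHX1, CUBN and AQP1 did not pass the test. Of the 7 genes tested, 3 were lower and 1 was higher at this threshold, beside 31.9% and 32.6% of the 12335 genes tested in the series. The share of kidney lineage genes that passed, 57.1%, was close to the 64.5% of all genes, so the count of calls is not particular to them. Their median log2 fold change (786-O-VHL over 786-O-Ctrl) was -0.40, beside 0.02 over all genes tested. Only MME passed the stricter threshold of over 4-fold with FDR < 0.01, which 1.54% of all genes passed as lower and 2.92% as higher in 786-O-VHL. The libraries of the groups did not overlap for 4 of the 7 genes as lower and for 1 as higher, beside 39.2% and 40.8% of all genes.

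The 786-O-Ctrl libraries, which carry 1 replicate number in the table and are named by their depth, held 22141263 and 15714166 counts. Replicate 1 of 786-O-VHL held 2807779 and replicate 2 held 16114120. Pairs of values below are given in this order, deeper before shallower for the control pair and replicate 1 before replicate 2 for the restored pair. SE is the standard error. Levels are TMM-scaled CPM, the counts of a gene per 1e6 counts of its library. An absence of counts allows up to 3, or 1.02 CPM in 786-O-VHL replicate 1 and between 0.142 and 0.199 CPM in the others, counting error only. VHL mRNA, which was also present in 786-O-Ctrl, rose from 43.4 ± 0.741 to 171 ± 10.5 CPM (SD, n = 2 each). Replicates differed by more than sampling noise, with chi-square per degree of freedom of 2.24 between the control libraries and 2.73 between the restored ones. With 2 libraries against 2, an exact two-sided permutation test cannot go below p = 0.333, so the false discovery rates (FDR) depend on the spread that edgeR's quasi-likelihood test borrows across genes, with Benjamini-Hochberg adjustment over all genes tested.

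The start regions of the 3 genes that fell are shown because HIF, which VHL targets for destruction, binds DNA at the core letters ACGTG or GCGTG. The 250 bases before each RefSeq start site (GRCh38.p14) are printed 5′ to 3′ on the strand of the gene, with any match to ACGTG or GCGTG on either strand in capitals. The window of PAX8 is chr2:113278922-113279171 on the minus strand, that of MME (the first of 4 RefSeq starts) is chr3:155079422-155079671 on the plus strand, and that of PAX2 (the first of 2) is chr10:100735146-100735395 on the plus strand.
PAX8: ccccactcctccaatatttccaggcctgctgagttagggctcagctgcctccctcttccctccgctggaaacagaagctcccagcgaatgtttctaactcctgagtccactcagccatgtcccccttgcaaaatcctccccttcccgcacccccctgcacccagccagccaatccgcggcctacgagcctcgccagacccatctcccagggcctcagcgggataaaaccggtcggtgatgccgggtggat
MME: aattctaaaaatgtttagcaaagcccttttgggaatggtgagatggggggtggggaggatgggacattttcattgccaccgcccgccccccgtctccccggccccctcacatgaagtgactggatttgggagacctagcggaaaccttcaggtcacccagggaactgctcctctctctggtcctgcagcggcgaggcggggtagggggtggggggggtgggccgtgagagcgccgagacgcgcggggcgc
PAX2: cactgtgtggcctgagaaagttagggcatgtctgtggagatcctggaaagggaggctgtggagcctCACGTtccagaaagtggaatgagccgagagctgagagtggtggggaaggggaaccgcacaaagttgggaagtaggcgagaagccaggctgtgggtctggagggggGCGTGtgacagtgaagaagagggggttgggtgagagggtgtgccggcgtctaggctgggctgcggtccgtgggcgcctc
These windows of PAX8 and MME hold neither core. That of PAX2 holds ACGTG on the reverse strand (CACGT as printed), beginning 184 bases before the start, and GCGTG on the forward strand, 79 bases before it. Over all 35116 windows of this length in the RefSeq table, 18.5% held ACGTG, 32.2% GCGTG and 43.2% at least 1 of them. Of the 9 genes, 7 had a start in that table, and 3 of those had a match in at least 1 window: PAX2, LRP2 with 5 matches to GCGTG, and MME, which had 1 match to each core before the last of its 4 starts. Some of these matches overlap. The count of 3 is per gene, over up to 4 windows, whereas the 43.2% is per window.

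PAX8, a paired-box factor of the nephric lineage that is retained in adult tubules, fell in the restored subline. PAX8 (ENSG00000125618.17, GRCh37 chromosome 2, 113973574 to 114036498, minus strand) was at 277 and 272 CPM in the control pair and at 166 and 137 CPM in the restored pair, from 5836, 4089, 490 and 2312 counts. Both 786-O-VHL libraries were thus below both 786-O-Ctrl libraries, with a mean of 274 ± 3.81 against 152 ± 20.5 CPM (SD, n = 2 each). The log2 fold change was -0.90 (standard error 0.0729, 95% interval -1.05 to -0.75, edgeR FDR = 1.32e-11), and 9.4% of the genes tested had a lower one. It stayed between -1.0 and -0.73 when each library was left out in turn. On the opposite strand lie 2 annotated genes, PAX8-AS1 among them, neither of which has a row in the table, and strand use in counting is not given, so reads of these could be counted on PAX8.

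PAX2 is the closest relative of PAX8 on the list and was lower in 786-O-VHL by less. PAX2 (ENSG00000075891.21, chromosome 10, 102495153 to 102589701, plus strand, no overlapping gene annotated) was at 38.6 and 38.7 CPM in the control pair and at 34.9 and 27.6 CPM in the restored pair. The groups did not overlap, but replicate 1 of 786-O-VHL lay nearer to the control libraries than to replicate 2. The log2 fold change was -0.40 (standard error 0.105, 95% interval -0.62 to -0.19, edgeR FDR = 0.00156). The call rested on replicate 2 of 786-O-VHL; left out, the value was -0.15 (edgeR FDR = 0.432), and it was not past the threshold with DESeq2 (-0.38, FDR = 0.0543) or with all libraries thinned to the depth of the shallowest (-0.09, edgeR FDR = 0.64). The number of PAX8 counts per PAX2 count, which does not depend on the scaling between libraries, was 7.19 and 7.01 in the control pair and 4.76 and 4.98 in the restored pair. Both 786-O-VHL libraries therefore had fewer PAX8 counts per PAX2 count than either control library, a difference that was not tested.

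LHX1, which acts with the PAX factors in the early nephric lineage, had few counts, and no difference was detectable at this depth. Its row with more counts (ENSG00000274577.2) was at 4.84 and 3.92 CPM in the control pair and at 2.71 and 4.22 CPM in the restored pair, and the groups overlapped. The 8 counts in 786-O-VHL replicate 1 have an exact Poisson interval of 1.17 to 5.34 CPM, which spans every other library. The log2 fold change was -0.18 (standard error 0.265, 95% interval -0.72 to 0.37, edgeR FDR = 0.574). A second row of the same symbol, ENSG00000273706.4, is the one placed on chromosome 17 of GRCh37 (35294084 to 35301912, plus strand), and held 12, 12, 1 and 18 counts. The first identifier has no position in the GRCh37 annotation used here, and reads of near-identical copies could have been split between both rows or dropped, so the level of LHX1 is uncertain. With the counts of both rows added, an alternative chosen after the rows were seen, the log2 fold change was -0.08 (edgeR FDR = 0.794).

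**Figure D1:**
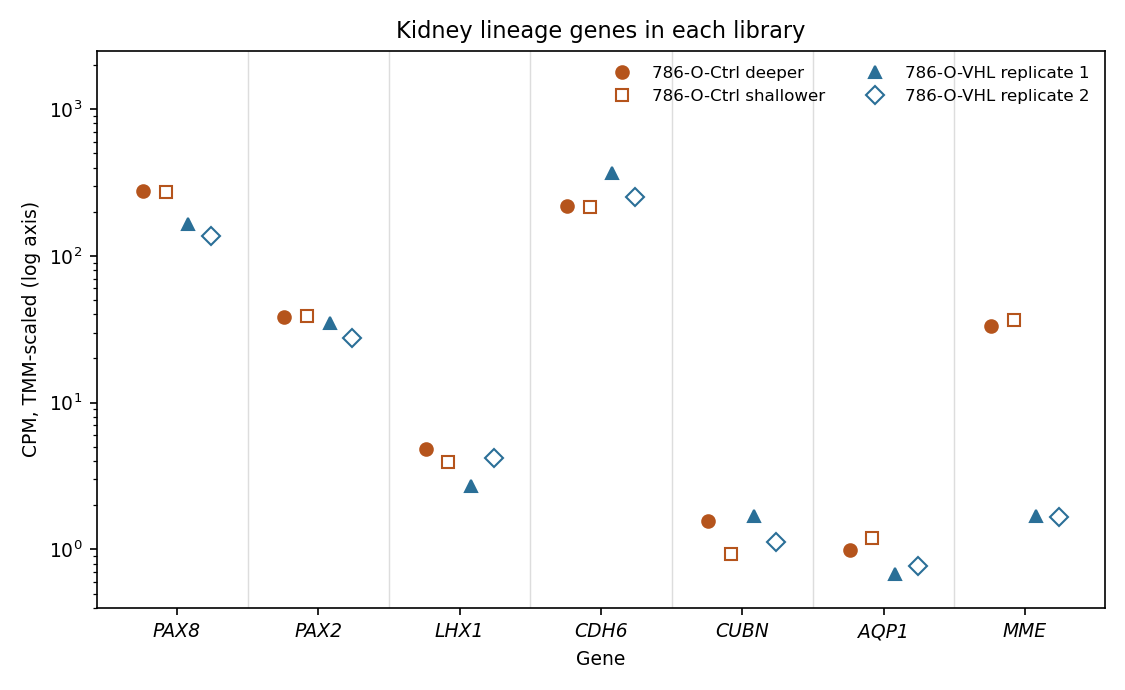
TMM-scaled CPM (log axis) of the 7 kidney lineage genes in each of the 4 libraries, 1 point per library, with 786-O-Ctrl in orange and 786-O-VHL in blue. MME drops from over 33 CPM in both 786-O-Ctrl libraries to 1.70 and 1.66 CPM in 786-O-VHL, PAX8 is lower in both 786-O-VHL libraries, and the points of LHX1 and CUBN overlap between groups.

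CDH6 was the only gene of the list that rose. This type II cadherin joins cells of the early tubule to each other. CDH6 (ENSG00000113361.13, chromosome 5, 31193793 to 31329253, plus strand) was at 219 and 215 CPM in the control pair and at 366 and 251 CPM in the restored pair. Both 786-O-VHL libraries were above both controls, but they differed from each other by more than replicate 2 differed from the controls (308 ± 81.4 against 217 ± 2.64 CPM, SD, n = 2 each). The log2 fold change was 0.45 (standard error 0.0946, 95% interval 0.26 to 0.65, edgeR FDR = 0.000144). It was 0.75 without 786-O-VHL replicate 2 and 0.21 without 786-O-VHL replicate 1, and with DESeq2 it was 0.48 and did not pass (FDR = 0.126). The number of CDH6 counts per PAX8 count was 0.789 and 0.791 in the control pair and 2.20 and 1.83 in the restored pair. CDH6 thus had fewer counts than PAX8 in both control libraries and more in both 786-O-VHL libraries. The annotation places 1 gene on the same strand and 2 on the opposite strand across part of CDH6, none of which has a row in the table.

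MME changed far more than the other genes of the list. MME (ENSG00000196549.10, GRCh37 chromosome 3, 154741913 to 154901493, plus strand) overlaps MME-AS1 on the opposite strand, which has no row in the table. It had 700 and 551 counts in the control pair, or 33.2 and 36.6 CPM, and 5 and 28 counts in the restored pair, or 1.70 and 1.66 CPM. The 786-O-VHL libraries, which differ several-fold in depth, gave nearly the same level, and both lay above what an absence of counts allows. The exact Poisson intervals of their counts were 0.552 to 3.97 CPM and 1.1 to 2.40 CPM. The log2 fold change was -4.38 (standard error 0.191, 95% interval -4.77 to -3.98, edgeR FDR = 1.88e-17), the lowest but 28 of the 12335 tested. In the ratio of counts within a library, PAX8 had 8.34 and 7.42 counts per MME count in 786-O-Ctrl and 98.0 and 82.6 in the restored pair.

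The tested genes of a similar level whose pattern over the 4 libraries was nearest to that of MME were FAM111B and SEMA6A, at Euclidean distances of 0.262 and 0.437 on centred log2 CPM among 2335 candidates. FAM111B, whose protein is a serine protease linked to DNA replication, had 687, 490, 4 and 29 counts and a log2 fold change of -4.28 (edgeR SE 0.191, FDR = 2.81e-17). SEMA6A, a transmembrane semaphorin, had 1249, 850, 12 and 61 counts and a log2 fold change of -3.97 (edgeR SE 0.142, FDR = 2.28e-19). With 4 libraries in 2 groups, this likeness is mostly a likeness in the size of the fall.

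The remaining proximal tubule genes with a row, CUBN and AQP1, had few counts in both sublines. CUBN (ENSG00000107611.15, chromosome 10, 16865965 to 17171810, minus strand) had 33 and 14 counts in the control pair, or 1.57 and 0.930 CPM, and 5 and 19 in the restored pair, or 1.70 and 1.13 CPM. The groups overlapped, and the mean CPM was higher in 786-O-VHL while the fitted log2 fold change was -0.07 (95% interval -0.99 to 0.86, edgeR FDR = 0.91), so no direction can be read. AQP1 (ENSG00000240583.12, chromosome 7, 30951468 to 30965132, plus strand, with 1 gene annotated on the same strand) had 21 and 18 counts in the control pair, or 0.997 and 1.20 CPM, and 2 and 13 in the restored pair, or 0.678 and 0.772 CPM. Both 786-O-VHL values of AQP1 lay below both controls, but the interval of the 2 counts in replicate 1 runs from 0.0821 to 2.45 CPM. Its log2 fold change was -0.51 (95% interval -1.55 to 0.52, edgeR FDR = 0.383), so no difference was detectable at this depth.

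**Figure D2:**
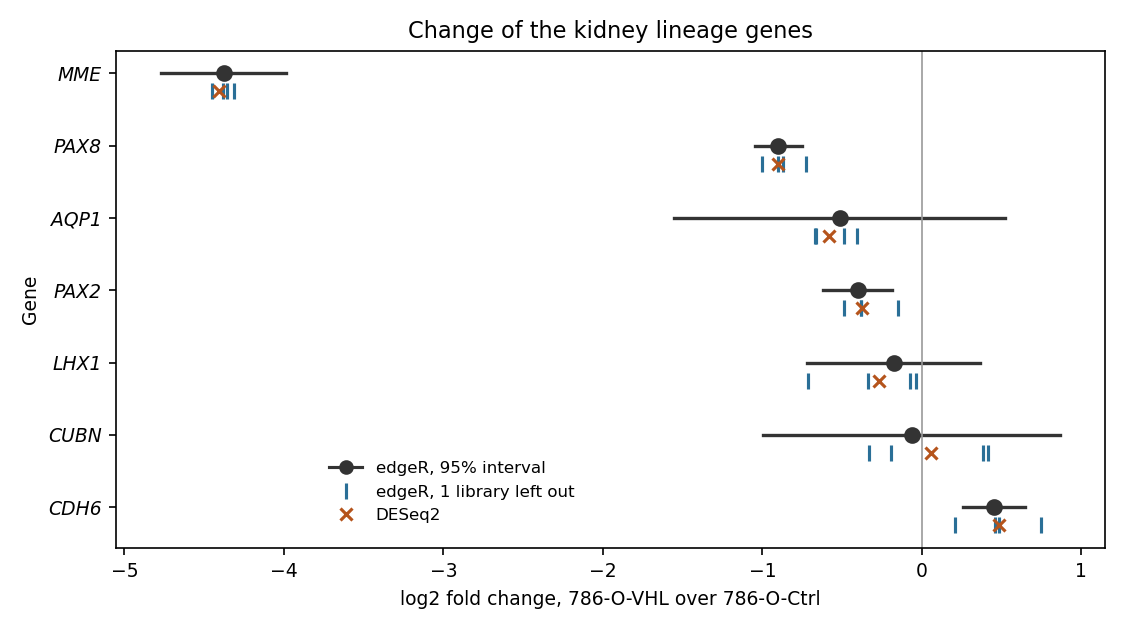
Log2 fold change of each kidney lineage gene (786-O-VHL over 786-O-Ctrl) with its 95% interval from edgeR, the values with 1 library left out (blue ticks) and the DESeq2 value (orange crosses). MME at -4.38 and PAX8 at -0.90 keep their place when any library is left out, whereas the ticks of CUBN lie on both sides of 0.

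Set out by CPM per kilobase of annotated exon, which allows genes to be compared, the order in 786-O-Ctrl was PAX8 at 37.2, CDH6 at 17.4, PAX2 at 5.87, MME at 3.54, AQP1 at 0.336 and CUBN at 0.0941. Each step in that order was larger than the spread between the 2 control libraries. In 786-O-VHL the order was CDH6 at 24.8, PAX8 at 20.6, PAX2 at 4.75, AQP1 at 0.222, MME at 0.170 and CUBN at 0.106. There the ranges of CDH6 (29.4 and 20.1) and of PAX8 (22.6 and 18.6) overlapped, though CDH6 was above PAX8 within each library. The values of AQP1, MME and CUBN rest on 2 to 28 counts each. Among 12200 tested genes with an annotated exon length, PAX8 stood above 90.1% in 786-O-Ctrl and above 83.2% in 786-O-VHL, and MME above 40.0% and 3.28%. CUBN and AQP1 stood above 8.84% or fewer in either subline. Checked against the list's own name, the proximal tubule markers CUBN and AQP1 were thus near the low end of these genes. LRP2 has no row, so its level is not known. MME, also of the proximal tubule, was near the low end only in 786-O-VHL. CDH6, of the prospective proximal tubule, stood above 78.6% of these genes in 786-O-Ctrl and above 86.4% in 786-O-VHL. Exon lengths are unions over all annotated transcripts, which lowers the value of genes with long or rarely used exons. LHX1 has no length here.

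**Figure D3:**
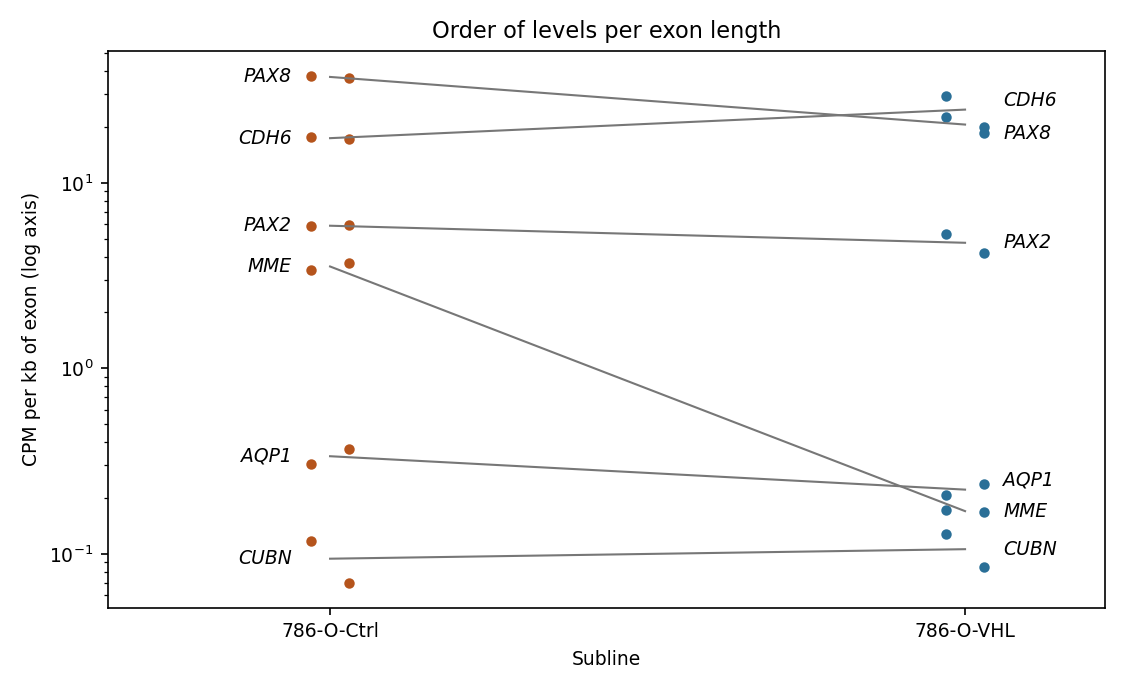
CPM per kilobase of exon (log axis) of the 6 genes with an annotated length, with 1 point per library and lines joining the group means. CDH6 and PAX8 exchange places between 786-O-Ctrl (17.4 and 37.2) and 786-O-VHL (24.8 and 20.6), and MME falls from 3.54 to 0.170.

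Other transcription factors of the nephron moved in both directions. Of 45 on the list, 35 were tested, and 19 were higher and 7 lower in 786-O-VHL at edgeR FDR < 0.05, their median log2 fold change being 0.32. That is 74.3% called, beside 64.5% of all genes (32.6% higher and 31.9% lower). Those with the largest falls were WT1, POU3F3 and OSR2. WT1, which acts in nephron progenitors and podocytes, was at 22.1 and 23.2 CPM in the control pair and 5.77 and 5.64 CPM in the restored pair, a log2 fold change of -2.0 (edgeR SE 0.16, FDR = 1.03e-11), and 1 gene is annotated on its opposite strand. POU3F3, a POU factor of the loop of Henle and distal tubule, fell by 1.31 on the log2 scale (edgeR SE 0.204, FDR = 2.4e-06), though a gene annotated on the same strand overlaps it.

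The 3 nephron factors with the largest rises were all near the low end. All 3 passed the filter on low counts only through the 786-O-VHL libraries, which favors rises among genes this low. Rises were not limited to such genes. With at least 10 counts required in every library, 29 of the nephron factors were tested, and 16 were higher and 6 lower. The orphan receptor ESRRG was at 0.617 and 0.133 CPM in the control pair and 2.37 and 2.49 CPM in the restored pair (log2 fold change 2.56, standard error 0.497, edgeR FDR = 5.68e-05). The log2 fold change of ESRRG was 4.10 without the deeper control library and 1.98 without the shallower one. NR1H4, the bile acid receptor FXR, had 7, 3, 4 and 26 counts (log2 fold change 2.41, edgeR FDR = 0.000481). It was not tested without 786-O-VHL replicate 2. OSR1, of the intermediate mesoderm, had 10, 2, 3 and 18 counts and a log2 fold change of 1.66 (edgeR FDR = 0.0199), which did not pass without the shallower control library (1.14, edgeR FDR = 0.209) or without 786-O-VHL replicate 2 (1.59, edgeR FDR = 0.331), and which was 2.89 without the deeper control library. Its relative OSR2 had a log2 fold change of -1.12 (edgeR FDR = 0.0253), which did not pass without the deeper control library (edgeR FDR = 0.222), without the shallower one (0.0553) or without 786-O-VHL replicate 2 (0.194). Over the whole list, 9 were higher and 4 lower without 786-O-VHL replicate 2, and 4 were lower without the deeper or without the shallower control library.

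Other genes of the proximal tubule passed in both directions. Of 58, 33 had a row and 26 were tested, of which 12 were higher and 7 lower in 786-O-VHL, their median log2 fold change being 0.46. In all, 73.1% were called, again beside 64.5% of all genes (32.6% higher and 31.9% lower). ASS1, an enzyme of arginine synthesis, rose from 24.6 and 23.3 CPM in the control pair to 140 and 144 CPM in the restored pair (log2 fold change 2.57, standard error 0.075, edgeR FDR = 3.62e-21). The phosphate and urate transporter genes SLC17A1 and SLC17A3, which are neighbors, rose from 0.332 and 0.199 CPM to 4.75 and 2.20 CPM and from 1.09 and 1.13 CPM to 9.16 and 4.63 CPM. Their log2 fold changes were 3.27 and 2.36 (edgeR FDR = 4.58e-06 and 1.23e-06), and 4.05 and 3.03 without 786-O-VHL replicate 2. That of SLC17A3 was 4.09 after thinning. Among the genes called higher, SLC17A1 was not alone in passing the filter on low counts only through 786-O-VHL, which favors rises. AKR7A3, which fell, passed it only through 786-O-Ctrl. Among those that fell, SLC16A9 was at 3.56 and 5.18 CPM in the control pair and 3.39 and 1.07 CPM in the restored pair, and its log2 fold change of -1.54 was -0.34 without 786-O-VHL replicate 2 (edgeR FDR = 0.621). The brush border protocadherin CDHR2 had a log2 fold change of -1.58 (edgeR FDR = 0.0017) and did not pass without the deeper control library (0.0567) or without 786-O-VHL replicate 2 (0.0816). AKR7A3 had 14 and 15 counts in the control pair and 0 and 1 in the restored pair, a ratio of pooled rates of 15.9 (exact 95% interval 2.63 to 649) in favor of 786-O-Ctrl, and did not pass without 786-O-VHL replicate 2 (edgeR FDR = 0.138). Without that library 1 gene of the list was lower, and without the deeper control library 4 were.

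Other brush border peptidases were set beside MME after their values were seen. ANPEP (aminopeptidase N) was at 193 and 184 CPM in the control pair and 196 and 183 CPM in the restored pair, and the groups overlapped. Its log2 fold change was -0.01 (edgeR SE 0.065, FDR = 0.89), with a sign that changed when the deeper 786-O-Ctrl library (0.03) or 786-O-VHL replicate 2 (0.04) was left out or when library totals alone were used (0.12). ENPEP (aminopeptidase A) was at 44.6 and 44.1 CPM in the control pair and 43.4 and 36.3 CPM in the restored pair, with a log2 fold change of -0.22 (edgeR FDR = 0.0378). It did not pass without the deeper (edgeR FDR = 0.231) or shallower (0.175) control library, or without replicate 2 of 786-O-VHL (0.844). DPP4 (dipeptidyl peptidase 4) was at 91.8 and 97 CPM in the control pair and 145 and 123 CPM in the restored pair, a rise of 0.46 on the log2 scale (edgeR SE 0.0726, FDR = 3.2e-06). GGT1, a brush border transpeptidase, had a log2 fold change of 0.45 and did not pass (edgeR FDR = 0.0818). In the family of MME itself, the endothelin-converting enzyme ECE1 was at 732 and 709 CPM in the control pair and 459 and 478 CPM in the restored pair (log2 fold change -0.62, standard error 0.0607, edgeR FDR = 7.14e-10).

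Megalin and cubilin work with adaptors and carriers, and these were measured although megalin had no row. Of 20 such partners 18 were tested, with 7 higher and 7 lower and a median log2 fold change of -0.03, so that 77.8% were called, beside 64.5% of all genes. DAB2, the adaptor that links megalin to clathrin, was at 81.6 and 88.5 CPM in the control pair and 218 and 190 CPM in the restored pair (log2 fold change 1.24, standard error 0.0709, edgeR FDR = 8.01e-15). FCGRT, the Fc receptor that rescues albumin and immunoglobulin from breakdown, rose from 4.32 and 4.45 CPM to 31.5 and 24.3 CPM (log2 fold change 2.58, standard error 0.168, edgeR FDR = 1.14e-13). Among the partners that fell, the endosomal protein APPL2 fell by 0.74 on the log2 scale and the AP-2 subunit AP2M1 by 0.55 (edgeR FDR of 4.39e-07 and 5.92e-09). ANKRA2, which binds the tail of megalin, had a log2 fold change of 0.77 (edgeR FDR = 0.000847) that did not pass without 786-O-VHL replicate 2 (edgeR FDR = 0.194), where 4 genes of the list were higher.

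Genes of the distal nephron and collecting duct that passed the test were all higher in 786-O-VHL. Of 50 on the list, 20 had a row and 17 were tested, and 11 of these were higher in 786-O-VHL, against 32.6% of all genes. None was lower by edgeR, 0 were lower at an unadjusted p under 0.05, and 0 by DESeq2. The median log2 fold change was 1.36. ST6GAL1, a sialyltransferase, rose from 0.427 and 0.930 CPM to 18.3 and 18.8 CPM (log2 fold change 4.85, standard error 0.265, edgeR FDR = 2.79e-15, and 3.90 after thinning). The water channel AQP4 had 1 count in each control library and 7 and 51 in the restored pair, a ratio of pooled rates of 52.9 (exact 95% interval 14.0 to 447). E-cadherin (CDH1), an adhesion gene of the distal nephron and of many other epithelia, had 3 and 2 counts in the control pair and 7 and 70 in the restored pair, a ratio of 28.1 (exact 95% interval 11.5 to 89.0), both pooled over libraries and covering counting error only. Without 786-O-VHL replicate 2, 6 genes of the list were higher and 1 was lower. AQP4 and CDH1 were not tested in that setting. By their control libraries alone, ST6GAL1, AQP4 and CDH1 would not have passed the filter on low counts, which favors rises. Several genes of this list are not specific to a nephron segment. The defining transport genes UMOD, SLC12A1 and AQP2 have no row in the table, so no level can be given for them.

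**Figure D4:**
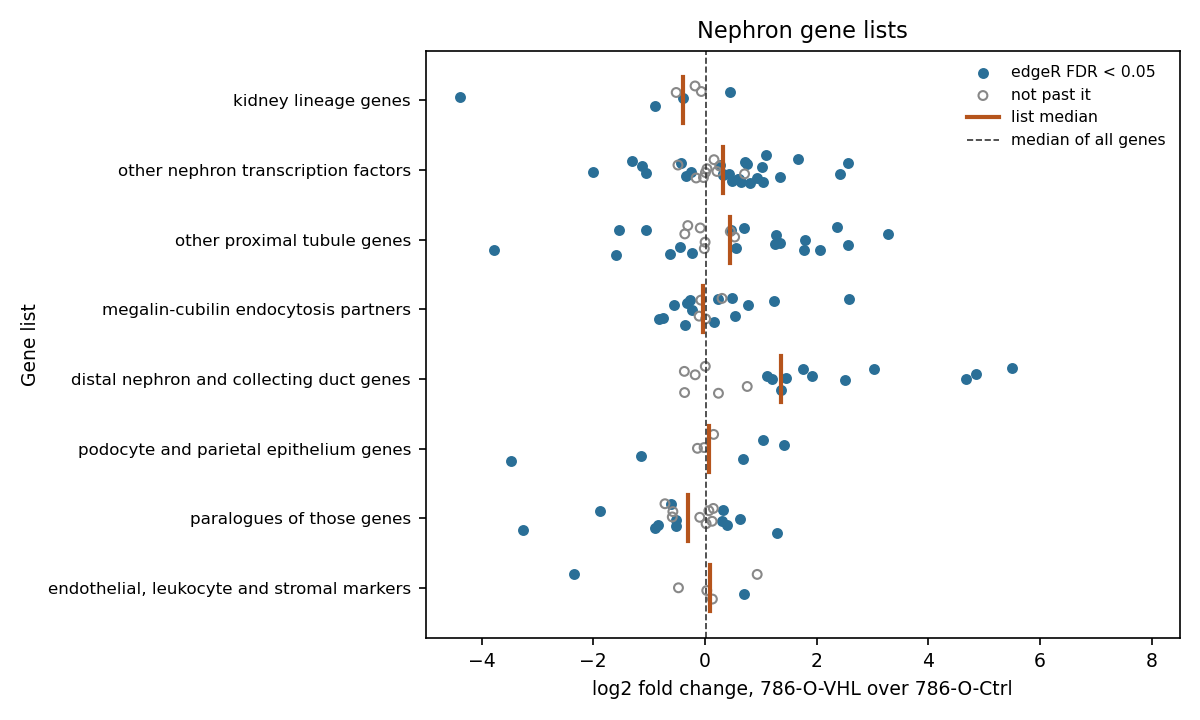
Log2 fold changes (786-O-VHL over 786-O-Ctrl) of the tested genes of each list, 1 point per gene, filled where edgeR FDR was under 0.05, with the median of each list (orange bar) and that of all genes (dashed line at 0.02). The distal nephron list has a median of 1.36 and no filled point below 0, whereas the kidney lineage genes have a median of -0.40.

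Relatives of the listed genes and markers of other cell types completed the comparison. Of 20 tested paralogues, 5 were higher and 7 lower, their median log2 fold change being -0.30. The 60.0% called was near the 64.5% of all genes. Among those that fell were LRP8, a lipoprotein receptor related to megalin, with a log2 fold change of -3.26 (edgeR FDR = 1.81e-19), and LRP11 at -0.90 (edgeR FDR = 0.00532, but 0.0647 with DESeq2). LRP11 was at -1.62 without 786-O-VHL replicate 2 and at -0.25 after thinning (edgeR FDR = 0.701). The type II cadherin CDH11, a relative of CDH6, rose by a log2 fold change of 1.29 (edgeR SE 0.128, FDR = 8.07e-10), from 19.7 and 22.1 CPM to 67.8 and 44.5 CPM. SORL1 and VLDLR had log2 fold changes of 0.63 and 0.40. SORL1 did not pass without the shallower control library (edgeR FDR = 0.109) or 786-O-VHL replicate 2 (0.189), nor did VLDLR without the deeper control library (0.0642). Of 8 tested podocyte and parietal genes, 3 were higher and 2 lower, or 62.5%, also near the share of all genes. The largest changes in each direction were those of CLDN1, at 1.41, and NES, at -3.48 on the log2 scale. NES had 2 and 5 counts in the restored pair, which alone would not have passed the filter on low counts. Its value was -2.57 without 786-O-VHL replicate 2.

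Markers of endothelium, leukocytes and stroma could be read only in part. Of 24 markers, 15 had no row in the table, among them VWF, CDH5 and PTPRC. Why a gene has no row is not stated, so no level can be given for these. The other 9 summed to 33.9 and 35.2 CPM in the control pair and to 26.5 and 27.6 CPM in the restored pair. Of 6 tested, CSF1R was lower, at 13.5 and 13.6 CPM in the control pair and 3.39 and 2.49 CPM in the restored pair (log2 fold change -2.35, edgeR FDR = 2.45e-10). PDGFRB was higher by 0.70 (edgeR FDR = 0.0147), a call that did not pass without the deeper control library (0.242) or 786-O-VHL replicate 2 (0.248). In bulk RNA, fewer cells with an mRNA and less of it per cell cannot be told apart.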

How the data were processed

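RNA-seq libraries of both 786-O sublines, 2 each, were analysed. The authors aligned reads to hg19 and deposited raw counts per gene, without normalization. Per the labels, STAR and CASAVA were used, whereas no source used here names the counting tool, strand setting or annotation. Both 786-O-Ctrl columns carry 1 replicate number. Differences were tested by edgeR 4.0.16 (R 4.3.3): filterByExpr (minimum count 10, which kept 12335 of 12912 rows), TMM, the quasi-likelihood test with group as the only term, and Benjamini-Hochberg adjustment over all genes tested. CPM includes the TMM factors. Standard errors and 95% intervals follow from the F statistic. Of repeated symbols (75), the identifier with most counts was used. Positions come from GENCODE for GRCh37, which held 12749 of the identifiers, and promoters from RefSeq (GRCh38.p14). The script was checked on simulated counts. The genes and lists were chosen with earlier results of these data known. Of each further list, at most 3 genes per direction with the largest significant fold change are named (1 for podocyte and for endothelial, leukocyte and stromal lists), and, for members changed over 2-fold, the 2 nearest profiles (prior count 2, mean log2 CPM within 1). Some genes that this rule names are not reported here. Alternatives were DESeq2 1.42.0, RLE factors, library totals, other filters, thinning and each library left out.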

Additional observations from a re-analysis of the deposited data

How the results depend on the processing

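The falls of MME and PAX8 passed edgeR or DESeq2 at FDR < 0.05 under every alternative in which the gene was tested, with log2 fold changes from -4.45 to -4.03 and from -1.0 to -0.73. MME drops out where every library must hold 10 counts. Scaling by library totals alone moved the median of all genes to a log2 fold change of 0.15, and 5077 genes were then higher and 3097 lower, beside 4017 and 3939 with TMM. The fitted log2 fold change of CUBN, which never passed, was 0.055 with DESeq2, 0.068 with library totals, and from -0.33 to 0.41 with each library left out, above 0 without the deeper 786-O-Ctrl library (0.41) or 786-O-VHL replicate 2 (0.39). That of ANPEP was 0.12 with library totals, and from -0.049 to 0.043 with each library left out. DESeq2 called 0 of the kidney lineage genes higher (1 with edgeR), 4 nephron transcription factors lower (7), 3 proximal tubule genes lower (7), 4 endocytosis partners higher (7) and 0 endothelial, leukocyte and stromal markers higher (1). At an unadjusted p under 0.05 edgeR had 1 kidney lineage gene and 2 such markers higher. After thinning, 12 nephron transcription factors were higher (19) and 3 lower (7), 3 proximal tubule genes were lower (7), 6 distal nephron genes were higher (11) and 1 podocyte gene was lower (2). Requiring 10 counts in every library left 4 proximal tubule genes lower, 5 distal nephron genes higher and 1 podocyte gene lower, with fewer genes tested. Library totals gave 2 endothelial, leukocyte and stromal markers higher. With each library left out, the counts ran from 9 to 20 higher and 4 to 8 lower for nephron transcription factors, 9 to 14 higher and 1 to 7 lower for proximal tubule genes, 4 to 7 higher for endocytosis partners, 6 to 11 higher and 0 to 1 lower for distal nephron genes, 0 to 1 higher for endothelial, leukocyte and stromal markers, and 2 to 3 lower for kidney lineage genes. Of the single genes named, 11 lost their call with DESeq2, 10 without 786-O-VHL replicate 2, 5 without the deeper and 4 without the shallower 786-O-Ctrl library, 4 after thinning and 1 with library totals, each in an unchanged direction. NR1H4, AQP4 and CDH1 were not tested without 786-O-VHL replicate 2, so they are not in that tally for it. Where an arm was left with 1 library, that library was assumed to vary like the others. The causes of these shifts were not tested beyond the loss of genes or libraries. No paired analysis was possible because both 786-O-Ctrl columns carry the same replicate number.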
